A study of Mus musculus with 6 samples.

Results

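The 10 genes described here belong to the unfolded protein response (UPR) and the integrated stress response (ISR) and were measured in cell fractions enriched for tumor endothelial cells (TECs), with and without Notch activation. They are Hspa5, Hsp90b1, Xbp1, Atf4, Ddit3, Trib3, Chac1, Asns, Sesn2 and Ppp1r15a, taken by symbol from the 23473 RefSeq gene rows of the expression table, in which all 10 were found. The cells came from subcutaneous Lewis lung carcinoma (LLC) tumors, a mouse lung cancer line transplanted into 3 NICeCA mice and 3 control (Ctrl) mice. NICeCA mice carry a Cdh5-driven, tamoxifen-inducible Cre (Cdh5-CreERT) and a Rosa26 transgene that releases the Notch1 intracellular domain once its stop cassette is removed, so that Notch signaling is switched on in cells expressing Cdh5. Ctrl mice are labelled wild type, and whether they carried the Cre or the transgene, or received tamoxifen, is stated neither by the labels nor by the methods. All mice were C57BL/6 with a labelled age of 8 weeks, and male according to the methods. Tamoxifen was given at 100 mg/kg daily for 5 days, and tumor cells were inoculated on the day after the last dose. The methods place collection on day 14 after inoculation, while the labels speak of different days. Cells were enriched with magnetic CD31 beads, and each gene has 1 RPKM value per library (reads scaled to the length of the gene and to the size of the library).

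The UPR is the program by which a cell answers unfolded protein in the endoplasmic reticulum (ER). It has 3 sensors in the ER membrane. IRE1 (Ern1) splices the Xbp1 mRNA, ATF6 is cut in the Golgi to free a transcription factor, and PERK (Eif2ak3) phosphorylates the translation factor eIF2-alpha. The ISR is the wider program that starts from phosphorylated eIF2-alpha, which PERK shares with kinases that sense heme (Eif2ak1), double-stranded RNA (Eif2ak2) and uncharged tRNA (Eif2ak4). Bulk protein synthesis then falls while ATF4 is translated more, and ATF4 turns on genes of amino acid supply and stress. Spliced and unspliced Xbp1 mRNA, translation of Atf4 and phosphorylation of eIF2-alpha cannot be read from gene-level RPKM values.

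Stretches of the upstream region are shown for the genes in which letters of a known stress element were found, since these genes differed in how they moved. Sequences are from RefSeq, build GRCm38.p6, and are written 5′ to 3′ on the strand of the gene. Capitals mark the fixed letters of the element. Hspa5 and Hsp90b1 hold the ER stress element, Asns and Chac1 the element of C/EBP and ATF factors, and Ppp1r15a the cAMP response element.
Hspa5, chr2:34772010-34772058, plus strand: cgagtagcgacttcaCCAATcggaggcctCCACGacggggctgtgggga
Hsp90b1, chr10:86705518-86705671, minus strand: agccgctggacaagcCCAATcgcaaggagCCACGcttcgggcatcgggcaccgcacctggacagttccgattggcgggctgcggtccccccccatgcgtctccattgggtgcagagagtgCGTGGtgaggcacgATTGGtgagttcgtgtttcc
Asns, chr6:7693210-7693247, minus strand: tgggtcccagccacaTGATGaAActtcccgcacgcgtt
Chac1, chr2:119351034-119351071, plus strand: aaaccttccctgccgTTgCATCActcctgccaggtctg
Ppp1r15a, chr7:45526269-45526295, minus strand: accccgcctctccggTGACGTCAgcac
The search covered 250 bases before and 50 after the annotated start on both strands. The ER stress element, CCAAT and CCACG parted by 9 bases, was found in 2 of the 10 genes, once in Hspa5 and in both orientations in Hsp90b1, and in 0.119% of all 32851 promoters. The element TGATGNAAN was found in 3 of the 10 (Asns, Chac1 and, after the start, Trib3) and in 3.95% of all promoters. TGACGTCA was found in Ppp1r15a alone of the 10 and in 1.79% of all promoters. TGACGTGG, the UPR element, was found in 0.676% of all promoters and in none of these 10 windows, and the stricter TGATGNAAT in 0.965% and none. CCACG alone, which lies inside the ER stress element, occurs in 32.8% of all promoters and in 7 of the 10.

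Between 27793317 and 30769939 reads per library fell on RefSeq rows, as recovered from the RPKM values, so these genes were sampled at between 31 reads in a library (Chac1) and 35108 (Hspa5). No library was a copy of another. Notch1, whose intracellular domain the transgene encodes, stood at 8.19 to 14.3 RPKM in Ctrl and 12.3 to 13.6 RPKM in NICeCA libraries, and the gene row cannot tell transgene from endogenous reads. Of 4 textbook Notch targets, read only as a check of the labels, Hey1 was called higher (2.69 to 5.55 against 6.05 to 10.6 RPKM, limma adjusted p = 0.041), while Nrarp (6.34 to 16.5 against 19.3 to 21.1 RPKM) and Hes1 (7.70 to 13.1 against 7.85 to 9.46 RPKM) were not (limma adjusted p = 0.052 and 0.56), and Heyl was too low to be tested. In every library, the summed level of 12 macrophage markers (7167 to 10133 RPKM in Ctrl, 5574 to 9535 RPKM in NICeCA libraries) was above that of 16 endothelial markers (271 to 693 RPKM and 588 to 768 RPKM), although the labels state TECs of over 90% purity. Lyz2 and C1qa, made by macrophages, stood at up to 5555 and 1112 RPKM, and Csf1r, the receptor that macrophages need, at 91.6 to 159 RPKM, against up to 154 RPKM for Pecam1, which encodes CD31, and up to 96.5 RPKM for Cdh5. The 10 neutrophil markers summed to 118 to 274 RPKM in Ctrl and 604 to 1676 RPKM in NICeCA libraries, and 7 of 8 tested were called higher, S100a8 among them. All 16 endothelial markers had a positive log2 change (median 0.66), of which Flt1 and Vwf were called. The 12 macrophage markers were mixed. Cd68, Cd14, Itgam and Fcgr1 were called higher, 7 had a negative log2 change (C1qa at -0.54 and Csf1r at -0.30 among them, none called), and the median was -0.14. Of the other lists, lymphocyte markers (45.5 to 75.9 against 44.6 to 66.1 RPKM, Cd3e at 1.98 to 6.11 RPKM) and fibroblast and mural markers (358 to 591 against 219 to 439 RPKM, Col1a1 at 9.57 to 28.2 RPKM) overlapped between the groups in their sums, with 0 of 9 and 5 of 11 called (2 higher and 3 lower). Among all tested genes, 13.6% were called in either direction (5.88% higher and 7.68% lower), so 0 of 9 lies near the share. Carcinoma and epithelial markers stayed at 6.86 to 12.6 against 6.505 to 8.83 RPKM, with Krt8 at 0.14 RPKM or less in each library and Krt18 lower in NICeCA libraries. In such bulk samples, fewer cells of a type and less RNA per cell cannot be told apart.

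**Figure D1:**
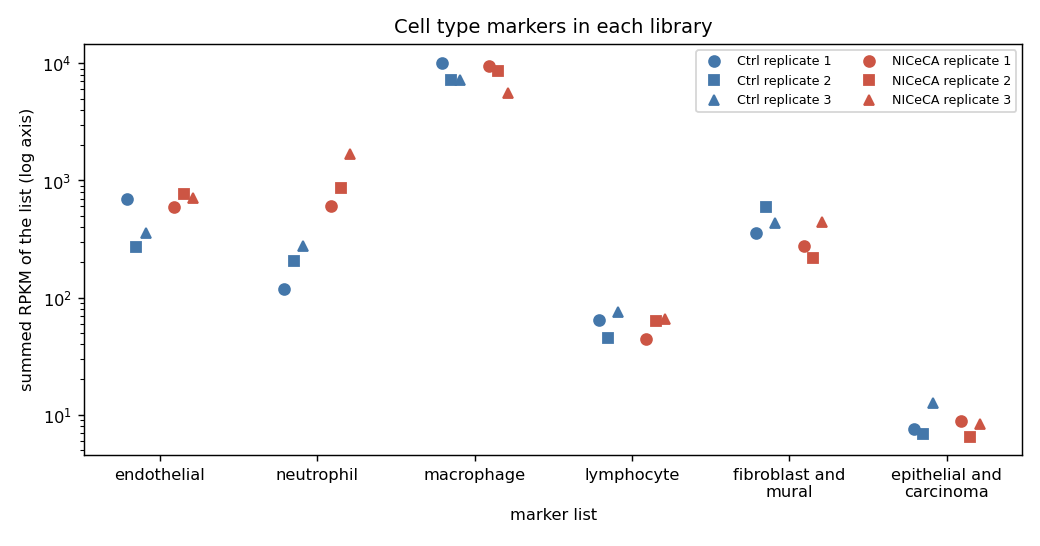
Summed RPKM (log axis) of 6 lists of cell type markers in each library, blue for Ctrl and red for NICeCA. The macrophage list is highest in every library, and the neutrophil list is the one in which every NICeCA library (604 RPKM or more) lies above every Ctrl library (274 RPKM or less).

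In the CD31-bead fractions of NICeCA tumors, the ER chaperone gene Hspa5, the transcription factor genes Atf4 and Ddit3 and the phosphatase gene Ppp1r15a were higher than in those of Ctrl tumors, by between 0.61 and 1.03 on the log2 scale. Xbp1, Hsp90b1 and Sesn2 lay higher in all 3 NICeCA libraries too, without passing the threshold. Trib3 and Asns, both classic targets of ATF4, could not be told apart between the groups, and Chac1 was too low to be tested. The comparison used log2(RPKM + 1) and limma over the 12320 genes with a mean of at least 1 RPKM, which all of the 10 except Chac1 reached in the Ctrl libraries alone. Of these 9, 4 were called higher (limma, Benjamini-Hochberg adjusted p under 0.05) against 5.88% of all tested genes (13.6% in either direction), and 0 were called lower. At an unadjusted p under 0.05, 7 were higher and 0 lower, against 14.4% and 21.1% of all tested genes. Fitted to reads recovered from the RPKM values, voom called 6 higher and 0 lower, against 8.60% and 5.97% of all genes, and limma with trimmed mean scaling of the libraries called 6 and 0, against 8.80% and 5.33%. The groups did not overlap in 7 of the 9, all with higher NICeCA values, against 16.5% of all tested genes (24.4% with lower NICeCA values, 40.9% in either direction). The median log2 change of the 9 was 0.61, against -0.050 over all tested genes. The genes were chosen with earlier results of these data known, so these comparisons are a description and no independent support. The neutrophil and endothelial markers lay in the same direction. Macrophage markers, the most abundant list, were mixed (4 of 12 called higher, 0 lower, median log2 change -0.14). The part of these cell types in the differences was not tested. Within the NICeCA group, replicate 3, which had the highest neutrophil sum, was highest in Ddit3, Ppp1r15a, Asns, Trib3 and Chac1, lowest in Hspa5 and Xbp1, and between the others in Atf4, Hsp90b1 and Sesn2.

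**Figure D2:**
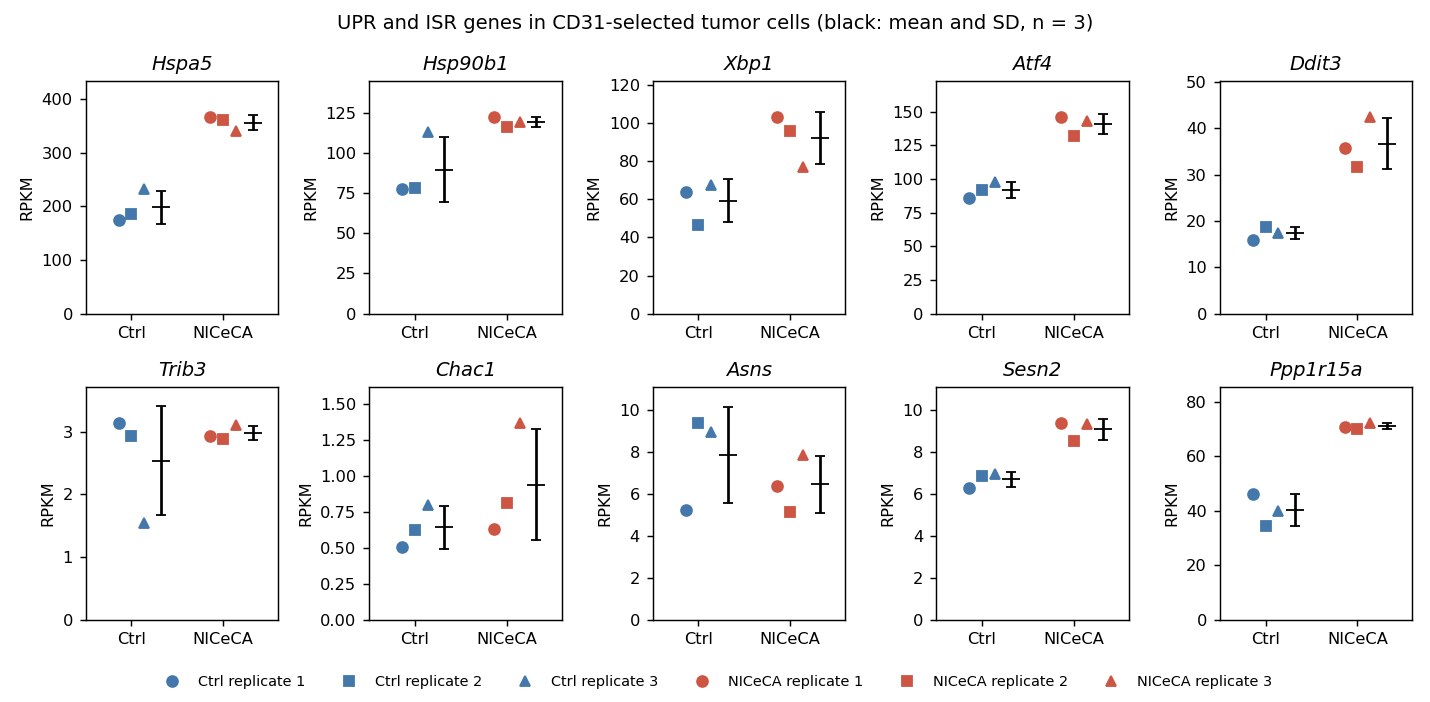
RPKM of the 10 genes in each library (circle, square and triangle for replicates 1, 2 and 3), blue for Ctrl and red for NICeCA, with the mean and SD of each group in black (n = 3). The groups are apart in Hspa5, Hsp90b1, Xbp1, Atf4, Ddit3, Sesn2 and Ppp1r15a and overlap in Trib3, Chac1 and Asns.

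Among the proteins that act inside the ER, Hspa5 encodes BiP, the chaperone that also holds the UPR sensors inactive. It lies at chr2:34772090-34776529 on the plus strand. All gene positions here are those of the expression table, which match GRCm38. Hspa5 was the most abundant of the 10 in RPKM. The Ctrl libraries held 175, 186 and 233 RPKM, and the NICeCA libraries 368, 361 and 341 RPKM. Every NICeCA library was at least 341 RPKM and no Ctrl library exceeded 233 RPKM. The means of 198 ± 30.6 and 356 ± 13.9 RPKM (SD, n = 3 each) gave a log2 change of 0.85 (standard error, SE, 0.15, limma adjusted p = 0.021). Hsp90b1 (chr10:86690841-86705444), which encodes the ER chaperone GRP94 and carries the same promoter element, had 77.9, 77.9 and 113 RPKM in Ctrl and 123, 116 and 119.5 RPKM in NICeCA libraries. The groups were separate but close, since Ctrl replicate 3 lay just under the NICeCA range. The log2 change of 0.43 (SE 0.17) missed the threshold (limma adjusted p = 0.11, 95% interval from 0.048 to 0.82). Without Ctrl replicate 3 it was 0.61 and was called (limma adjusted p = 0.028). The ratio of Hspa5 to Hsp90b1 within a library, which does not depend on library scaling and, like the other ratios here, was chosen after the values were seen, was 2.07 to 2.38 in Ctrl and 2.85 to 3.10 in NICeCA libraries. Xbp1 (chr11:5520641-5525993), the transcription factor whose mRNA is spliced by IRE1, had 63.8, 46.4 and 67.7 RPKM in Ctrl and 103, 95.7 and 76.9 RPKM in NICeCA libraries. Its log2 change of 0.63 (SE 0.18) fell just short of the threshold (limma adjusted p = 0.056). With trimmed mean scaling of the libraries, and with voom, it was called (limma adjusted p = 0.046 in both), while quantile normalization left a change of 0.32 (limma adjusted p = 0.21).

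Atf4 (chr15:80255184-80257541) encodes the transcription factor at the center of the ISR. Values were 85.6, 91.9 and 97.5 RPKM in Ctrl and 147, 132 and 143 RPKM in NICeCA fractions, with little spread inside either group. The log2 change was 0.61 (SE 0.12, limma adjusted p = 0.028). Ddit3 (chr10:127290793-127296288) encodes CHOP, a transcription factor that ATF4 induces and that is tied to cell death under lasting ER stress. Its values were 15.96, 18.7 and 17.5 RPKM in Ctrl and 35.8, 31.6 and 42.5 RPKM in NICeCA libraries, so that the lowest NICeCA library stood well clear of the highest Ctrl library. The rise from 17.4 ± 1.35 to 36.6 ± 5.51 RPKM (SD, n = 3 each) was 1.03 on the log2 scale (SE 0.14, limma adjusted p = 0.012), the largest among the 9 tested genes. Ddit3 shares 68 bases at its end with Mars, a tRNA synthetase gene on the other strand, which was at 11.6 to 13.7 RPKM in Ctrl and 10.3 to 13.0 RPKM in NICeCA libraries. The ratio of Ddit3 to Atf4 was 0.179 to 0.203 in Ctrl and 0.239 to 0.297 in NICeCA libraries.

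The genes downstream of ATF4 did not move alike. Ppp1r15a (chr7:45522917-45526268) encodes GADD34, the phosphatase subunit that reverses eIF2-alpha phosphorylation and restores translation. It had 46.3, 34.6 and 39.99 RPKM in Ctrl and 70.7, 70.2 and 72.4 RPKM in NICeCA libraries. The NICeCA libraries hardly differed (71.1 ± 1.17 RPKM, SD, n = 3) and lay above every Ctrl library, and the log2 change was 0.81 (SE 0.14, limma adjusted p = 0.0205). Its constitutive counterpart Ppp1r15b stood at 32.3 ± 4.48 and 28.5 ± 1.33 RPKM (SD, n = 3 each) and was not called. The ratio of Ppp1r15a to Ppp1r15b was 1.07 to 1.48 in Ctrl and 2.35 to 2.63 in NICeCA libraries. Sesn2 (chr4:132492807-132510456), which encodes a leucine-sensing brake on mTORC1, had 6.29, 6.86 and 6.96 RPKM in Ctrl and 9.40, 8.52 and 9.34 RPKM in NICeCA libraries. Although fully separate, these values gave a log2 change of 0.39 (SE 0.11) that just missed the threshold (limma adjusted p = 0.053). It was called with trimmed mean scaling, quantile normalization and voom (limma adjusted p = 0.029, 0.036 and 0.030).

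Asns (chr6:7675171-7693182) encodes asparagine synthetase, whose gene is switched on when amino acids run short. It had 5.24, 9.40 and 8.95 RPKM in Ctrl and 6.36, 5.16 and 7.86 RPKM in NICeCA libraries, and the groups overlapped. The log2 change of -0.23 had a 95% interval from -0.75 to 0.29 (limma adjusted p = 0.49). Trib3 (chr2:152337425-152344060), a pseudokinase that feeds back on ATF4 and CHOP, had 3.15, 2.93 and 1.55 RPKM in Ctrl and 2.94, 2.89 and 3.10 RPKM in NICeCA libraries. Ctrl replicate 3 alone lay below the others, and without it the log2 fold change went from 0.20 to -0.021 (limma adjusted p = 0.49 and 0.92). Chac1 (chr2:119351242-119354327), an enzyme that degrades glutathione and responds strongly to ATF4 and CHOP, held 31 to 49 reads per Ctrl library and 36 to 80 reads per NICeCA library. Its values were 0.51, 0.62 and 0.80 RPKM in Ctrl and 0.63, 0.81 and 1.37 RPKM in NICeCA libraries. They overlapped (two-sided exact permutation p = 0.2), and with 3 mice against 3 this test cannot give a p below 0.1. Asns and Chac1, in which a C/EBP-ATF element was found before the start within the window searched, both had overlapping groups. Sequence further from the start was not searched in any gene, so Ddit3 and the others may hold the element there. Whether the element goes with the size of change was not tested. Within a library, the ratio of Ddit3 to Asns was 1.95 to 3.05 in Ctrl and 5.41 to 6.12 in NICeCA libraries.

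**Figure D3:**
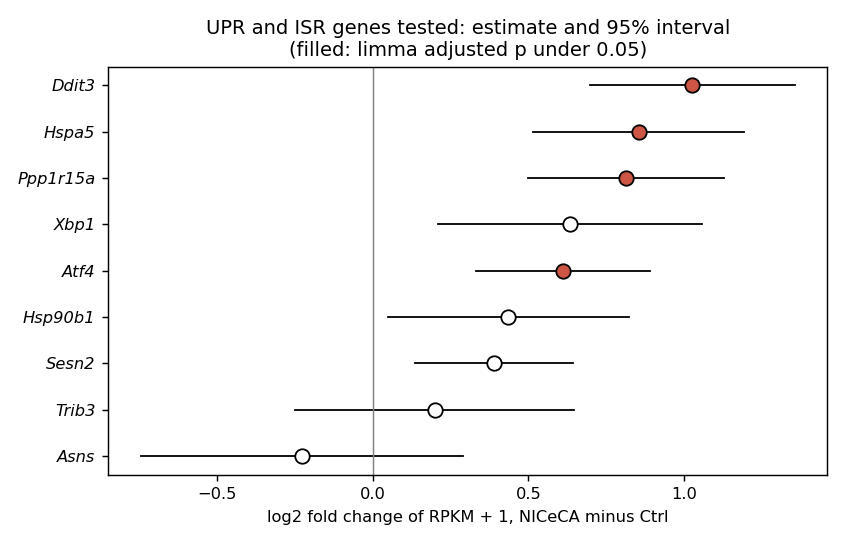
Log2 fold change of RPKM + 1 (NICeCA minus Ctrl) of the 9 genes tested, with 95% intervals from limma. Filled points, Ddit3, Hspa5, Ppp1r15a and Atf4, passed an adjusted p of 0.05, and the intervals of Trib3 and Asns include 0.

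The calls depended on which libraries were in the fit. Without NICeCA replicate 1, and likewise without NICeCA replicate 2, 0 of the 9 genes were called by limma. The log2 fold changes of the 4 called genes moved less than their adjusted p. Without NICeCA replicate 1, that of Ddit3 was 1.04 (limma adjusted p = 0.057), that of Hspa5 0.83 (0.090), that of Ppp1r15a 0.82 (0.085) and that of Atf4 0.58 (0.11). Without NICeCA replicate 2, they were 1.13 (0.050, just above the threshold), 0.85 (0.099), 0.82 (0.095) and 0.66 (0.11). Across all tested genes the number called higher went from 725 to 91 and 26 in these fits. Without Ctrl replicate 2, the library with the lowest endothelial sum (271 RPKM), Ddit3 and Ppp1r15a were called, and Hspa5 (0.81, limma adjusted p = 0.051) and Atf4 (0.62, 0.064) were not. Quantile normalization ended the calls of Hspa5 (0.44, limma adjusted p = 0.076), Ppp1r15a (0.56, 0.058) and Atf4 (0.25, 0.14), and Hsp90b1 was at 0.081 in that fit.

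**Figure D4:**
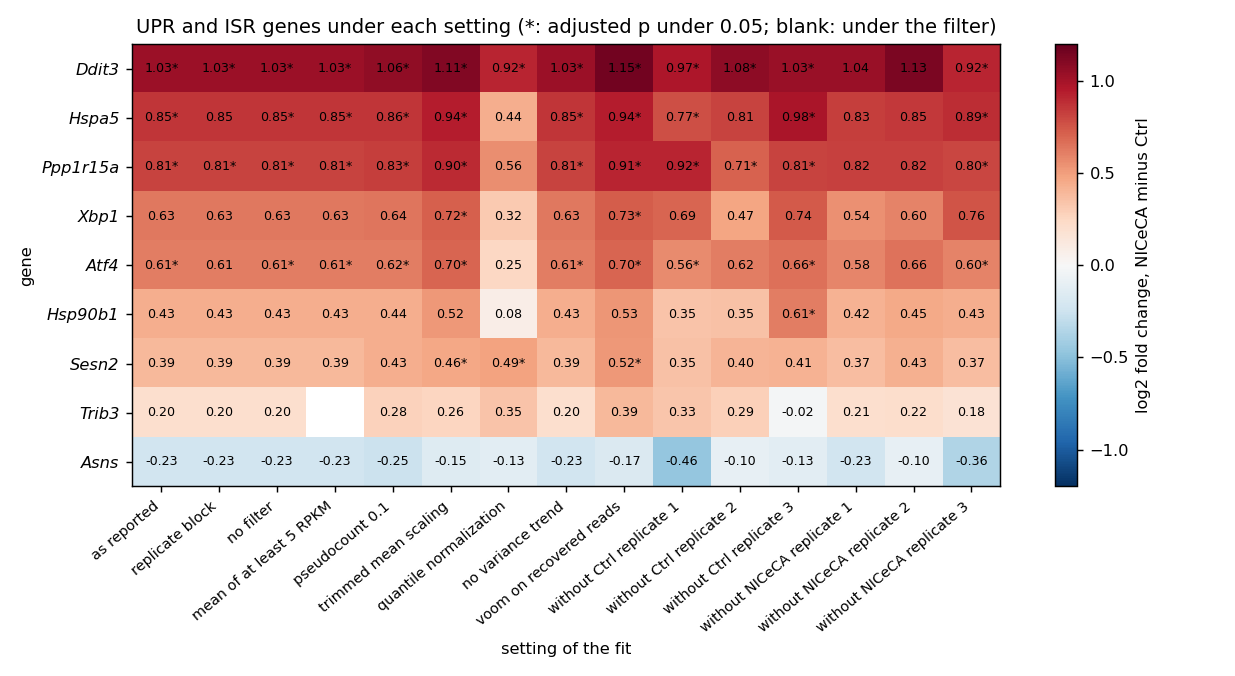
Log2 fold change (NICeCA minus Ctrl, color scale and printed value) of the 9 tested genes under each setting of the fit, with a star where the adjusted p is under 0.05. Ddit3 keeps a value of 0.92 or more in every column, while Asns stays below 0 and Trib3 changes sign once.

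The wider pathway was read from 8 lists holding 114 genes, of which 107 were tested. In these, 17 genes were called higher and 5 lower (limma), against 5.88% and 7.68% of all tested genes, and the median log2 change was 0.11. With trimmed mean scaling the counts were 25 higher and 2 lower, against 8.80% and 5.33% of all tested genes. With voom they were 25 and 3, against 8.60% and 5.97%. Leaving out NICeCA replicate 1 left 2 higher and 0 lower, and leaving out NICeCA replicate 2 left 0 and 0. Leaving out Ctrl replicate 2 left 8 and 0. The fit lacking Ctrl replicate 1 gave 12 and 5, that lacking Ctrl replicate 3 gave 19 and 1, and that lacking NICeCA replicate 3 gave 14 and 4. The lists, also chosen with earlier results of these data known, differed from each other in which way their genes lay. The neutrophil and endothelial markers lay higher beside all of them, and the macrophage markers were mixed. The part of these cell types in the list counts was not tested.

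Chaperones and foldases of the ER leaned upward. Of 22 tested, 6 were called higher and 0 lower (11 and 0 at an unadjusted p under 0.05, and 10 and 0 with voom), with a median log2 change of 0.36. Among all tested genes, limma called 5.88% higher and 7.68% lower. At an unadjusted p under 0.05 these shares were 14.4% and 21.1%, and with voom 8.60% and 5.97%. Ero1l (now Ero1a), the oxidase that feeds disulfide bonds into the ER, rose from 16.02 ± 8.40 to 53.3 ± 8.08 RPKM (SD, n = 3 each), a log2 change of 1.77 (SE 0.30, limma adjusted p = 0.021). Dnajb9, a BiP cochaperone and target of spliced XBP1, rose from 7.33 ± 1.41 to 16.7 ± 3.11 RPKM, a log2 change of 1.09 (limma adjusted p = 0.020). The disulfide isomerase genes Pdia4 and P4hb rose by 0.88 and 0.61 on the log2 scale (limma adjusted p = 0.027 and 0.040), and reads of Pdia4 include those of Mir704 inside it. Sdf2l1 and Manf, both induced by ER stress, rose by 0.68 and 0.53 (limma adjusted p = 0.045 and 0.046). Of 14 alternatives, the call was lost in 9 for Manf (in every fit lacking a library, limma adjusted p from 0.052 to 0.181), 8 for Sdf2l1, 8 for P4hb, 5 for Pdia4, 3 for Ero1l and 2 for Dnajb9. Hyou1, another ER chaperone of the UPR, was at 28.2 ± 4.30 and 26.4 ± 3.32 RPKM and was not called (limma adjusted p = 0.72).

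Genes of ER-associated degradation, which sends misfolded proteins to the proteasome, were called about as often as all tested genes (5.88% higher and 7.68% lower). Of 17 tested, 1 was higher and 1 lower, 14 had a positive log2 change, and the median was 0.12. Vimp (now Selenos), a membrane partner of the degradation complex, rose by 0.47 on the log2 scale (limma adjusted p = 0.037), while Syvn1, the ubiquitin ligase HRD1 at the core of that complex, went from 10.4 ± 1.87 to 6.30 ± 0.96 RPKM (SD, n = 3 each), a log2 change of -0.64 (limma adjusted p = 0.042). Syvn1 overlaps Mrpl49 on the other strand by 89 bases. The calls of Vimp and Syvn1 were each lost in 7 of 14 alternatives. Herpud1, a sensitive UPR target, stood at 33.8 ± 6.79 and 37.0 ± 5.55 RPKM and was not called (limma adjusted p = 0.62).

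The sensors and proteases had a median log2 change of -0.25, against 0.36 for the chaperones. Of these 9 genes, 0 were called higher and 2 lower by limma (0 and 4 at an unadjusted p under 0.05, 0 and 2 with voom, 0 and 1 with trimmed mean scaling). Limma called 5.88% of all tested genes higher and 7.68% lower, or 14.4% and 21.1% at an unadjusted p under 0.05. The shares were 8.60% and 5.97% with voom, and 8.80% and 5.33% with trimmed mean scaling. For 9 genes, 0 called higher lies near these shares. Ern1, which encodes IRE1, went from 15.3 ± 2.53 to 10.0 ± 1.06 RPKM (SD, n = 3 each), a log2 change of -0.55 (limma adjusted p = 0.049), and Eif2ak4, which encodes the amino acid sensor GCN2, from 5.25 ± 0.57 to 3.36 ± 0.21 RPKM, a log2 change of -0.52 (limma adjusted p = 0.038). The call of Ern1 was lost in 11 of 14 alternatives and that of Eif2ak4 in 9 of 13, each library left out included for Eif2ak4 (limma adjusted p from 0.0501 to 0.156), while both changes stayed negative. Eif2ak3 (log2 change -0.093), Atf6 (0.075), Eif2ak1 (0.11) and Eif2ak2 (0.032) were not called (limma adjusted p from 0.56 to 0.92). Of the 10 genes of eIF2, its exchange factor and its regulators, 0 were called (limma, and 0 with voom). At an unadjusted p under 0.05, 1 was higher and 0 lower, and the median was 0.12. For 10 genes, 0 calls lie near the shares of all tested genes (5.88% higher and 7.68% lower).

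Genes of ATF4 partners and genes that ATF4 or CHOP controls also differed among themselves. Among 8 bZIP factors that can pair with ATF4, Atf3, a stress-induced repressor, rose from 88.2 ± 10.4 to 143 ± 10.7 RPKM (SD, n = 3 each), a log2 change of 0.70 (limma adjusted p = 0.028), and was the 1 called (median 0.12), a call lost in 5 of 14 alternatives. Over all tested genes, limma called 5.88% higher and 7.68% lower, so 1 of 8 lies near the share. At an unadjusted p under 0.05 the shares were 14.4% and 21.1%, and with voom 8.60% and 5.97%. Of 15 other targets of ATF4 or CHOP tested, 8 were higher and 0 lower (10 and 0 at an unadjusted p under 0.05 and with voom), with a median of 0.72. The largest were Ero1l again, Tiparp (1.40), Vegfa (1.26), Ddit4 (1.24), Gdf15 (1.14) and Gadd45a (1.14), with limma adjusted p from 0.0089 to 0.025. Of 14 alternatives, the call was lost in 5 for Vegfa, 2 each for Tiparp and Ddit4 and 1 each for Gdf15 and Gadd45a. Several of these also answer to low oxygen (Vegfa, Ddit4, Ero1l) or to p53 (Gadd45a, Gdf15). Gdf15, a secreted stress cytokine, rose from 7.83 ± 0.80 to 18.5 ± 2.11 RPKM, and Ddit4, an inhibitor of mTORC1, from 48.5 ± 12.4 to 115 ± 17.6 RPKM (SD, n = 3 each). Tiparp and Gadd45a each overlap another row on the opposite strand.

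Genes of amino acid supply lay mostly on the lower side. Of 15 tested, 2 were higher and 2 lower by limma (2 and 6 at an unadjusted p under 0.05), 12 had a negative log2 fold change, and the median was -0.31. Over all tested genes the limma shares were 5.88% and 7.68% (14.4% and 21.1% unadjusted), and the median was -0.050. For 15 genes, 2 calls each way lie not far from these shares. With voom and with trimmed mean scaling the counts were 2 higher and 0 lower. The shares of all tested genes were 8.60% and 5.97% with voom, and 8.80% and 5.33% with trimmed mean scaling. The 2 that rose form 1 transporter. Slc7a11, the cystine carrier xCT, had 4.40, 3.30 and 10.1 RPKM in Ctrl and 20.3, 25.1 and 29.5 RPKM in NICeCA libraries, a log2 change of 2.01 (SE 0.33, limma adjusted p = 0.019). Its heavy chain Slc3a2 rose from 45.1 ± 1.04 to 76.4 ± 6.41 RPKM (SD, n = 3 each), a log2 change of 0.74 (limma adjusted p = 0.019). Slc7a5, the leucine carrier LAT1 that uses the same heavy chain, went the other way, from 16.1 ± 3.59 to 9.19 ± 1.97 RPKM, a log2 change of -0.74 (limma adjusted p = 0.047), as did the glycine carrier Slc6a9 with -1.04 (limma adjusted p = 0.047). The call was lost in 9 of 14 alternatives for Slc7a5 and 9 of 13 for Slc6a9, against 2 of 14 for Slc7a11 and 3 of 14 for Slc3a2. The ratio of Slc7a11 to Slc7a5 was 0.167 to 0.634 in Ctrl and 2.38 to 3.28 in NICeCA libraries. The 12 aminoacyl-tRNA synthetases charge tRNAs and are common ATF4 targets. Of these, 0 were called in either direction by limma at an adjusted or unadjusted p under 0.05, or by voom, and the median was -0.074. Of all tested genes, 5.88% were called higher and 7.68% lower, so 0 of 12 lies near the share at the adjusted threshold.

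**Figure D5:**
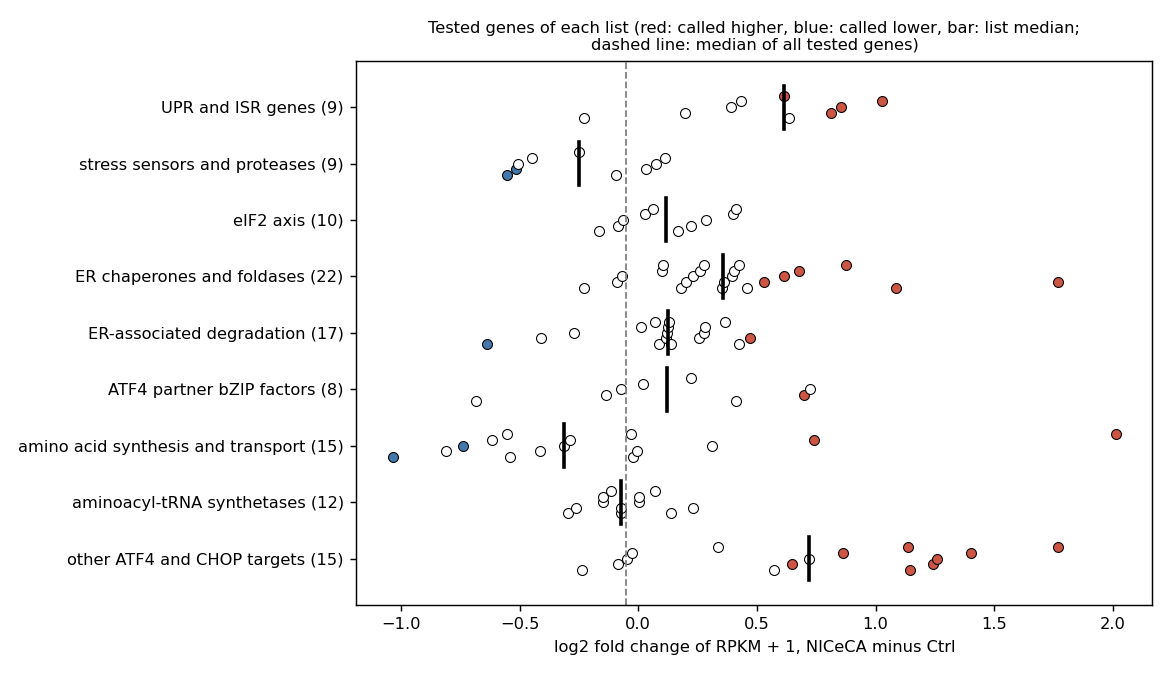
Log2 fold change (NICeCA minus Ctrl) of each tested gene of the 10 UPR and ISR genes and of 8 lists around them, with the number tested in brackets, the list median as a bar and the median of all tested genes (-0.050) as a dashed line. ER chaperones (median 0.36) and other ATF4 and CHOP targets (0.72) lie to the right, sensors (-0.25) and amino acid genes (-0.31) to the left.

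The genes whose levels over the 6 libraries were most like those of Hspa5, Atf4 and Ddit3 were found by the root mean square difference of log2(RPKM + 1) after centering each gene on its mean. Nearest to Hspa5 were Scand1 (0.038 on the log2 scale), the V-ATPase subunit gene Atp6v1c1 (0.050) and the clathrin adaptor gene Ap3s1 (0.055). Nearest to Atf4 were Gbe1, the glycogen branching enzyme gene (0.040), the proteasome subunit gene Psmd8 (0.051) and Vti1b, a SNARE gene (0.058). Nearest to Ddit3 were E230016M11Rik (0.091), Ptgr1 (0.11) and Gadd45a (0.12), of which E230016M11Rik overlaps Gadd45a by 809 bases on the other strand. Since these 9 were chosen for following genes that were higher in NICeCA libraries, their own direction is fixed by that choice.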

How the data were processed

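RNA of CD31-selected cells from 3 Ctrl and 3 NICeCA mice was sequenced after ribosomal RNA depletion. The authors deposited RPKM values, which the submitters' processing notes place after alignment with TopHat2. For counting and strand, the tool and setting were not found: not given in the sources used here. Although mm9 is named, 99.3% of the rows matched by symbol overlap their gene in GRCm38. RPKM times row length was a whole multiple of 1 read (within 0.05) for 100% of values under 1000 reads, so reads were recovered. Read numbers printed for a gene show counting depth, and the recovered reads were otherwise used only in the voom fit.

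RefSeq rows were compared as log2(RPKM + 1) with limma 3.58.1 in R 4.3.3 (mean-variance trend, two-sided, Benjamini-Hochberg), for genes with a mean of at least 1 RPKM. The 33353 FANTOM3 rows were left out. The fit was tested on simulated data. Members and lists were chosen with earlier results of these data known. Named are all 10 genes, up to 6 called genes of each list by size of change, fixed sensors and markers, and the 3 nearest profiles. Alternatives were a replicate block, each library left out, other filters (none, 5 RPKM), a pseudocount of 0.1, trimmed mean scaling, quantile normalization, no trend, and voom on recovered reads. Separate mice are stated by the methods only as pairs, so p-values measure the spread between these libraries.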

Additional observations from a re-analysis of the deposited data

How the results depend on the processing

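The direction of the 9 tested genes held under every alternative run, with 1 exception: without Ctrl replicate 3, Trib3 was at -0.021. With each library left out in turn, the log2 fold change ranged from 0.77 to 0.98 for Hspa5, 0.35 to 0.61 for Hsp90b1, 0.47 to 0.76 for Xbp1, 0.56 to 0.66 for Atf4, 0.92 to 1.13 for Ddit3, -0.021 to 0.33 for Trib3, -0.46 to -0.095 for Asns, 0.35 to 0.43 for Sesn2 and 0.71 to 0.92 for Ppp1r15a. In the same fits 0 to 5 of them were called higher and 0 lower, with 0 to 19 of the pathway genes higher and 0 to 5 lower, and 26 to 913 of all genes higher and 1 to 832 lower.

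Whether the replicate numbers stand for the pairs of mice in the methods is not stated. Deviations from the group means correlated at 0.12, -0.34 and -0.18 between libraries of the same number, and not every library correlated best with its own number. With so few libraries, whose deviations constrain each other, these correlations cannot decide whether the mice were paired. With the replicate block, Hspa5 (0.85, limma adjusted p = 0.054) and Atf4 (0.61, 0.078) were not called, which left 2 of the members, 8 pathway genes higher and 0 lower, and 327 genes higher and 209 lower overall. With quantile normalization, Hspa5 was at 0.44, Atf4 at 0.25 and Ppp1r15a at 0.56 and none of the 3 was called, Sesn2 was called at 0.49, and 2 members were called higher, with 10 pathway genes higher and 0 lower and 446 and 325 genes overall. With no filter, where 22072 genes were tested, 260 genes were higher and 105 lower, and 9 and 0 of the pathway genes. At a mean of at least 5 RPKM, 579 genes and 3 pathway genes were lower. Xbp1 and Sesn2 were called with trimmed mean scaling (0.72 and 0.46) and with voom (0.73 and 0.52), where 2 and 3 pathway genes were lower. Of all calls, those higher in NICeCA libraries made up 43.4% as reported, 62.3% with trimmed mean scaling, 57.8% with quantile normalization and 59.0% with voom, which called 1059 genes higher and 735 lower. Scaling moved the median of all genes by 0.080 or less on the log2 scale. The cause of these changes was not tested.

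Genes near 0 changed sign when a library was left out: Atf6 was between -0.032 and 0.22, Col1a1 between -0.24 and 0.50, Eif2ak2 between -0.14 and 0.16, Herpud1 between -0.0089 and 0.28 (and at -0.041 with quantile normalization) and Hyou1 between -0.21 and 0.011. At 31 to 80 reads per library for Chac1, counting error limits what can be read from it. For Trib3, Ctrl replicate 3 (124 reads) lay apart from the other libraries (209 to 252 reads).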
